A study of Mus musculus with 11 samples.

Results

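The cells described here are 148 germ cells of the adult mouse testis that stood highest for 6 genes of dividing spermatogonia, out of 1228 wells with enough RNA to be scored and 1920 wells sorted in all. The 6 genes were Ccna2, Ccng1, E2f2, Pou4f1, Cenpa and 2410018L13Rik. In every well the counts of unique molecular identifiers (UMIs, the tags that mark original RNA molecules) were scaled to 10000, and the score was the mean of ln(1 + scaled count) over the 6 genes. Wells with at least 3000 UMIs were kept, without spike-ins, mitochondrial genes, the GFP reporter row and the ribosomal precursor Rn45s. The chosen cells were the top 12% of kept wells by this score within each animal: 57 of 475 wells in mouse 1, 33 of 273 in mouse 2 and 58 of 480 in mouse 3. Because the wells were chosen by measured RNA levels, the levels of the 6 genes below are a description and carry no test.

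All animals were adult mice that carried a Dazl-GFP reporter, a green fluorescent protein tied to the germ cell gene Dazl, and for which the labels give no treatment. Living, GFP-positive testis cells were sorted 1 per well for SORT-Seq, a single-cell method that counts the 3′ ends of polyadenylated RNA. Mouse 1 gave 768 wells on plates made with the CEL-Seq1 chemistry, mouse 2 gave 384 wells and mouse 3 gave 768 wells, both with CEL-Seq2, so that any difference between mouse 1 and the other animals cannot be told apart from the chemistry. The labels give gate sorting for plate 8 of mouse 3 and index sorting, in which the fluorescence of each cell is stored, for every other plate. The chosen cells were 32 of 267 kept wells on plate 8 and 26 of 213 on plate 10. The replicate is the mouse (n = 3), and no group differed by genotype, treatment or age in the labels.

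Spermatogonia are the mitotic germ cells of the testis. Undifferentiated spermatogonia, which include the stem cells, give rise to KIT-positive differentiating spermatogonia under the action of retinoic acid, and these pass through a fixed series of divisions, the last of which yields preleptotene spermatocytes. Preleptotene cells switch on Stra8 and Meioc, replicate their DNA once more and enter the long prophase of meiosis, in which homologous chromosomes pair (zygotene), recombine (pachytene) and silence the X and Y. In mitotic cells 2 waves of transcription follow each other: E2F factors raise the genes of DNA replication at the start of S phase, and MYB and FOXM1 with the DREAM/MuvB complex raise the genes of mitosis in G2. The 6 score genes touch several of these steps: Ccna2 encodes cyclin A2 of S phase and G2, E2f2 an E2F factor, Cenpa the histone H3 variant of centromeres, Ccng1 cyclin G1, a p53 target, and Pou4f1 a POU-domain transcription factor. 2410018L13Rik is named by its clone only.

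The score genes were measured as UMIs per 1000000 UMIs (CPM) over the summed chosen wells of each animal. Ccna2 had 359, 564 and 574 CPM in the chosen cells of mice 1, 2 and 3, against 41.5, 81.0 and 50.9 in all other kept wells. Cenpa had 373, 488 and 504 against 34.6, 86.6 and 40.0. Ccng1 had 215, 275 and 208 against 22.5, 27.9 and 28.1. The rarer genes behaved alike, with the lowest animal of the chosen group above the highest animal of the rest for all 6. Pou4f1 had 60.7, 119 and 80.8 CPM in the chosen cells and 6.03, 16.0 and 7.30 in the rest. E2f2 had 68.9, 74.2 and 51.6 against 3.94, 6.35 and 3.37. For 2410018L13Rik the values were 102, 129.9 and 101 against 11.2, 15.0 and 10.9.

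The score formed no gap at the threshold. The lowest chosen well and the highest well left out scored 0.741 and 0.733 in mouse 1, 0.875 and 0.859 in mouse 2, and 0.816 and 0.810 in mouse 3. Within 10% of the threshold lay 15, 13 and 16 wells that were left out and 18, 10 and 15 that were chosen. The chosen group is a range of a continuous score. The median score was 0.860, 1.04 and 0.998 among chosen wells and 0.0704, 0.149 and 0.0953 among the rest. Of the 148 chosen wells, 108 held UMIs of 5 or 6 of the genes, and 67 of the 1080 others did. The chosen wells had a median of 17413, 15176 and 23640 UMIs in mice 1, 2 and 3, and the others 22490, 12420 and 18245.

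No single score gene made up the group. When each gene in turn was left out of the score, 124 to 136 of the 148 wells were chosen again, and the left-out gene was still 3.96 to 12.1 times as high in the newly chosen wells as in the rest over the 18 gene and mouse pairs. The smallest of these ratios was that of Ccng1 in mouse 2 and the largest that of E2f2 in mouse 3. These wells were found through the other 5 genes, so the left-out gene took no part in choosing them, although the set of 6 was put together on these data.

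For comparison, 2 groups of neighbouring cells were formed by the same kind of score within each animal, without the chosen wells. Later differentiating spermatogonia were the top 12% for Pou3f1, Crabp1, Kit and Esx1, which left 32, 23 and 29 wells in mice 1, 2 and 3. Cells at meiotic entry were the top 12% for Stra8, Prdm9 and Ugt8a, which left 53, 33 and 57 wells. The chosen cells overlapped mainly with the first of these: 64 of the 148 (43.2%) were also in the top 12% by the later differentiating genes, and 5 (3.38%) in the top 12% by the meiotic entry genes. Of the wells left in the 2 groups, 4, 1 and 1 in mice 1, 2 and 3 were in both. Counts were summed per animal and group and compared with edgeR's quasi-likelihood test with the mouse as a block, with Benjamini-Hochberg adjustment over all genes tested, a call being an adjusted p under 0.05. All groups were cut from the same libraries by RNA levels, so a call says that a gene goes with the score; the genes of a score were left out of the comparison they served. The 3 comparisons share the chosen cells. Where sums of 2 groups are said not to overlap, this describes the genes named, and its share over all genes is not given.

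Libraries held 16682671, 5866174 and 18032562 UMIs in mice 1, 2 and 3, no 2 kept wells had the same profile, and p-values measure the spread over 3 animals of which 1 had another chemistry.

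The markers of other cells were checked first. Markers of other testis cells were near the limit of detection in the chosen wells: 7 of 10 Leydig cell genes, among them Cyp17a1, Cyp11a1 and Insl3, and 6 of 8 endothelial genes, among them Pecam1 and Cdh5, had no UMI in any chosen well. Summed levels in the chosen cells of the 3 animals lay between 6.56 and 9.51 CPM for the Leydig list, 16.7 and 18.9 for the peritubular list, 2.46 and 9.28 for the macrophage list and 0 and 1.36 for the endothelial list, and none of the 4 of their genes that passed the filter was called against the other wells. The Sertoli list summed to 143, 241 and 248 CPM in the chosen cells against 145, 154 and 152 in the rest, with Amh, Dhh and Trf at 0 and 2 of 9 tested genes, Sox9 and Ctsl, called higher. Sox9 had 10.7, 12.99 and 8.83 CPM against 6.17, 2.501 and 2.15 (adjusted p = 0.0102), was not called without mouse 2, without mouse 3, without plate 8, in the top 6% or without the mouse in the model, and its part in any result was not tested. Of undifferentiated spermatogonia, Zbtb16 (PLZF) stood at 20.5, 5.57 and 20.4 CPM in the chosen cells and 13.97, 14.2 and 10.1 in the rest, without a call (adjusted p = 0.456). Id4, a stem cell marker, fell by 3.90 ± 0.19 (log2 ± SE, 13.1, 11.1 and 29.2 against 242, 234 and 286, adjusted p = 3.84e-07). Id4 was also low in the later differentiating cells (8.31, 4.59 and 36.7 CPM) and at meiotic entry (20.9, 14.4 and 34.5). Its low level is thus not particular to the chosen cells.

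Against all other kept wells the chosen cells differed in most genes: 3806 of 11773 genes tested were higher (32.3%) and 4106 lower (34.9%), with a median log2 difference over all genes of -0.02. Counts of list members are read against these shares, and since the chosen wells and the rest are the contrast the score itself made, they describe the group. Most genes of differentiating spermatogonia and of the cell cycle lists were higher, and genes of pachytene lower. Of the list of differentiating spermatogonia 15 of 19 were higher and 2 lower, of DNA replication 27 of 35 higher and 4 lower, of mitosis 34 of 50 higher and 8 lower, and of pachytene 0 of 24 higher and 24 lower. The median log2 differences of these 4 lists were 1.37, 0.91, 0.56 and -3.55. The leptotene and zygotene list had 6 of 18 higher and 7 lower (median -0.34), shares near those of all genes. The list of undifferentiated spermatogonia had 2 of 12 higher, Foxo1 and Sall4 (the second without a call by DESeq2), and 6 lower (median -1.38).

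Genes of differentiating spermatogonia were mostly higher than in the rest. Dmrt1, a transcription factor that holds spermatogonia in mitosis, had 422, 646 and 654 CPM in the chosen cells and 79.9, 159 and 124 in the rest (log2 difference 2.15 ± 0.13 SE, adjusted p = 7.86e-07). Kit, the receptor of differentiating spermatogonia, had 173, 262 and 319.8 against 42.9, 75.4 and 44.0 (2.12 ± 0.18, 5.58e-06). The X-linked homeobox gene Esx1 had 344, 341 and 287 against 23.5, 49.4 and 24.6 (3.30 ± 0.21, 9.94e-07). For all 3 genes every chosen sum lay above every sum of the rest. The retinoic acid receptor Rara was also higher (1.49 ± 0.25, adjusted p = 4.84e-04), as were 3 other receptor genes of the retinoic acid list. Of the 2 list members that were lower, Ddx4, a germ cell RNA helicase, had 237, 347 and 348 against 677, 762 and 903 (-1.47 ± 0.11). Ccnd2, cyclin D2 of early differentiation, was lower at 12.3, 3.71 and 8.15 against 23.0, 41.2 and 21.4 (-1.65 ± 0.37, adjusted p = 0.00291), but was not called when the score was computed at equal depth (adjusted p = 0.74) and was 0.24 higher, without a call, when the top 20% of wells were chosen.

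**Figure D1:**
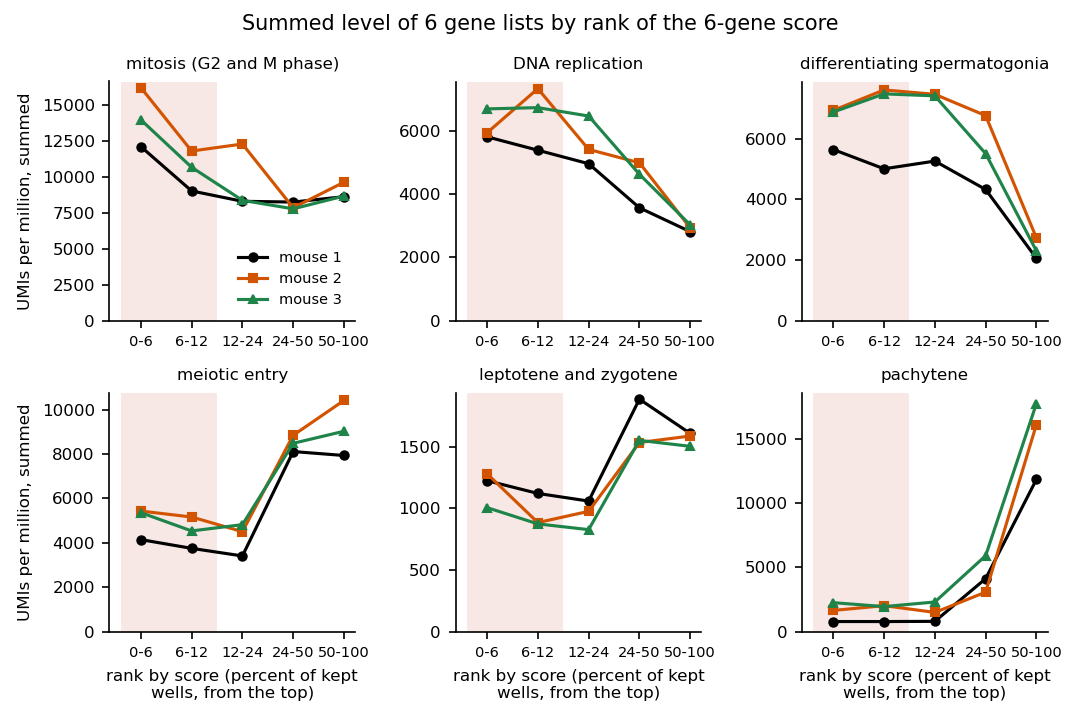
Summed level of 6 gene lists (y axis, CPM, linear from 0) in kept wells ranked by the 6-gene score (x axis, percent of kept wells from the top), with 1 line per mouse and the chosen top 12% shaded. The mitosis list is highest in the top 6% in all 3 mice, while the pachytene list is at most 2310.4 in the top 24% of wells and at least 11845 in wells ranked 50 to 100%.

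The levels of these lists differed along the rank of the score, without a steady rise or fall in each. The mitosis list, without score genes, summed to 12087, 16190.0 and 13950.0 CPM in the top 6% of wells of mice 1, 2 and 3, and to 9007, 11780.0 and 10651 in the next 6%. Just below the threshold, in wells ranked 12 to 24%, it was at 8287, 12267 and 8354. Further down it was at 8234, 7838 and 7763 at 24 to 50%. At 50 to 100% it was higher again in all 3 mice, at 8607, 9614 and 8653. Mitosis genes thus stood highest at the top of the score, and mouse 2 alone was as high just outside the threshold as in the lower part of the chosen group. DNA replication genes were at 5820.1, 5949 and 6705 in the top 6%, 5396, 7346 and 6745 in the next 6%, 4969, 5421 and 6479 at 12 to 24%, and 2816, 2937 and 3029.7 at 50 to 100%. The list of differentiating spermatogonia was about level down to 24%, at 5265, 7470 and 7419 there against 5647, 6939 and 6885 at the top. The pachytene list rose only below, from 804, 1499 and 2310.4 at 12 to 24% to 11845, 16115 and 17747 at 50 to 100%. Stra8, which drives entry into meiosis, stood at 45.1, 164 and 96.0 CPM in the top 6% and at 259, 262 and 509 in the wells ranked 12 to 24%.

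Of the 50 mitosis genes, the 4 with the largest differences called higher than in the rest were Cdc25b, Kif4, Plk1 and Ccnb1. Cdc25b, the phosphatase that activates CDK1, had 26.2, 85.3 and 63.1 CPM in the chosen cells and 1.64, 5.96 and 4.41 in the rest (log2 difference 3.73 ± 0.26 SE, adjusted p = 1.56e-06). Plk1, the kinase of mitotic entry and spindle assembly, had 130.4, 289 and 254 against 24.5, 45.4 and 26.9 (2.66 ± 0.15, 6.66e-07). Ccnb1, cyclin B1, had 302, 456 and 452 against 75.2, 103 and 65.0 (2.20 ± 0.14, 1.13e-06). The chosen and other sums did not overlap for these 3 genes. The proliferation marker Mki67 was at 400.2, 899.8 and 673 against 129, 203 and 162 (1.81 ± 0.11, 8.97e-07). The chromosome passenger kinase Aurkb (2.16 ± 0.16), the X-linked kinesin Kif4 (2.71 ± 0.13) and the anaphase enzyme Ube2c (1.91 ± 0.15) were higher as well. Other mitosis genes were not higher. Cdk1, the kinase of mitotic entry that pairs with B cyclins, had 146, 197 and 149 CPM against 144, 133 and 127 without a call (adjusted p = 0.377), Bub1 was not called (adjusted p = 0.206), and 8 genes were lower, from Nek2 and Cks2 (-1.44 ± 0.18 and -1.39 ± 0.12) to Ccnb2, cyclin B2 (-0.40 ± 0.12, adjusted p = 0.0141, and 0.132 without the mouse in the model). Top2a, topoisomerase II, was 0.44 ± 0.10 higher (adjusted p = 0.00334), but was not called without mouse 2, without mouse 3, in the top 20%, at equal depth of the score or without the mouse in the model.

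Genes of DNA replication were mostly higher than in the rest. Cdc6, which loads the MCM helicase, had 98.4, 92.8 and 100.5 CPM in the chosen cells and 19.9, 23.9 and 16.2 in the rest (2.21 ± 0.17, adjusted p = 3.28e-06). Mcm2 of the helicase itself had 234, 314 and 309.6 against 48.3, 83.1 and 62.7 (2.05 ± 0.13, 1.13e-06). Tk1, thymidine kinase, had 54.1, 89.0 and 61.1 against 6.69, 13.7 and 10.97 (2.59 ± 0.22, 5.73e-06). None of these overlapped with the rest. Orc1 of the origin recognition complex (2.18 ± 0.16), Dscc1 of the clamp loader (2.38 ± 0.24) and Mcm6 (1.32 ± 0.12) were higher too. The sliding clamp Pcna differed least among the called genes named here, at 733, 777 and 820.2 against 539, 505 and 615 (0.36 ± 0.10, adjusted p = 0.0101), and was not called without mouse 2, in the top 20%, without the filter on low counts or without the mouse in the model. At equal depth of the score the difference was -0.03. Gins1, of the GINS complex of the replication fork, was lower (-0.65 ± 0.12).

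Of 16 tested genes of the E2F and pocket protein list, which holds regulators of both waves, 11 were higher and 3 lower, with a median log2 difference of 1.07. E2f3 had 62.3, 70.5 and 63.8 CPM against 9.12, 18.3 and 11.6 (2.29 ± 0.23, adjusted p = 1.52e-05), and E2f1 was 1.36 ± 0.17 higher. Mybl2 (B-MYB, 1.71 ± 0.18) and Foxm1 (1.63 ± 0.15), which act on mitosis genes in G2, were higher in 3 of 3 mice. Lin52, a subunit of MuvB, had 13.1, 12.99 and 25.1 against 63.6, 54.3 and 67.6 and fell by 1.95 ± 0.21 (adjusted p = 2.16e-05). Lin9, another MuvB subunit, and Rbl1, which DESeq2 did not call, were the other genes called lower. Among cyclins, 9 of 19 were higher and 7 lower. Ccnd1, cyclin D1, which links growth signals to the start of S phase, had 203, 341 and 307 against 29.8, 66.6 and 28.1 (2.75 ± 0.19, 1.39e-06). Mybl1 (A-MYB) and Ccna1, the relatives of MYBL2 and cyclin A2 that serve meiosis, were lower, at 0.820, 9.28 and 2.04 against 55.5, 57.5 and 22.5 (-3.93 ± 0.41, adjusted p = 2.03e-05) and at 4.92, 9.28 and 4.07 against 13.7, 11.2 and 15.8 (-1.49 ± 0.40, adjusted p = 0.00795). Ccna1 was not called without mouse 3 or without the gate-sorted library.

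The promoters of these genes were searched for the sequence elements of the 2 waves, since most members of both lists were higher than in the rest. RefSeq promoters (GRCm38.p6, 250 bases before to 50 after each start) were matched by symbol for 44 of the 50 mitosis genes and 28 of the 35 replication genes, and Ccna2 and Aurkb had no entry. Both strands were searched for TTTGAA (the core of the cell cycle homology region, CHR), CCAAT (bound by NF-Y), and TTTCCCGC or TTTGGCGC (E2F). CHR letters were in 31 of 44 mitosis promoters (70.5%), in 4 of 28 replication promoters (14.3%) and in 20.2% of all 27025 genes with a promoter. CHR and CCAAT were together in 63.6% of mitosis promoters and 7.97% of all. E2F letters were in 10 of 28 replication promoters (35.7%), in 2 of 44 mitosis promoters (4.55%) and in 1.80% of all. Over the 8848 genes that were tested against the other wells and had a promoter, the shares were 13.9% for CHR, 5.94% for CHR with CCAAT and 3.62% for E2F, so that the E2F share of mitosis promoters was near this background. CCAAT, with or without CHR, was in 71.4% of replication promoters, 79.5% of mitosis promoters and 41.1% of all. The list of differentiating spermatogonia had CHR letters in 2 of 16 promoters (12.5%) and E2F letters in 0 of 16. Among mitosis genes called higher than in the rest, 22 of 29 promoters held CHR letters (75.9%). No motif contains another, though matches could overlap by their ends. A match is a description of the sequence and not a site or a cause, and the lists were not chosen on promoters.

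The 150 bases before the start show the 2 kinds of arrangement, with motif matches on either strand in capitals. A match on the other strand reads ATTGG for the NF-Y box, TTCAAA for the CHR core and GCGGGAAA for the first E2F form. Mki67, Ube2c, Kif11 and Espl1 are shown for mitosis, Cdc6 and Mcm6 for replication, and Cenpa and E2f2, with 2 alternative starts, for the score genes. Their positions, in the same order, are chr7:135716380-135716529 (minus strand), chr2:164769779-164769928 (plus), chr19:37376232-37376381 (plus), chr15:102296143-102296292 (plus), chr11:98908001-98908150 (plus), chr1:128359706-128359855 (minus), chr5:30666736-30666885 (plus), chr4:136172124-136172273 (plus) and chr4:136180632-136180781 (plus).
Mki67: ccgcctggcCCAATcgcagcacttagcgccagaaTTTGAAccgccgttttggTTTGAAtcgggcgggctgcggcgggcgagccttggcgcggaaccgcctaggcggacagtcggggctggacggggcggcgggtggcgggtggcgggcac
Ube2c: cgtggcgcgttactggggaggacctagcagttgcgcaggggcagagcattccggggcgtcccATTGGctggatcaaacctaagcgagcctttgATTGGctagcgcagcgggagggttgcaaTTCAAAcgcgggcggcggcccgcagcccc
Kif11: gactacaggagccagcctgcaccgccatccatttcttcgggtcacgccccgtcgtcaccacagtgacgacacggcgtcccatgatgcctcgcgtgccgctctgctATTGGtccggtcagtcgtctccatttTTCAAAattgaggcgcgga
Espl1: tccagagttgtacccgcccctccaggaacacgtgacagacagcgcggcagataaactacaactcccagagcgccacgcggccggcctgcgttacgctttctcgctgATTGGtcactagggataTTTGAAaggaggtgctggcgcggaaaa
Cdc6: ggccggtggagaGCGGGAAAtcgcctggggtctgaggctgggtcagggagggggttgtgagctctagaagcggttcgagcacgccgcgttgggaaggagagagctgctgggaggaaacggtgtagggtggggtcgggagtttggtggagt
Mcm6: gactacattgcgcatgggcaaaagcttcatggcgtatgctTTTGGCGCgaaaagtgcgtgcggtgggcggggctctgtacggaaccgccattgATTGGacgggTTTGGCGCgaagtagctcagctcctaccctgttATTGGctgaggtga
Cenpa: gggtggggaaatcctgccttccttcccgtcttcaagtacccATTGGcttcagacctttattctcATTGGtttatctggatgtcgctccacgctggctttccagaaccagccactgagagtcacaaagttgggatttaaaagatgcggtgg
E2f2, first start: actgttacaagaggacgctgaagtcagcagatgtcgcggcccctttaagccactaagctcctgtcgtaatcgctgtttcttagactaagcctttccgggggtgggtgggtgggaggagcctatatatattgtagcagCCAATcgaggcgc
E2f2, second start: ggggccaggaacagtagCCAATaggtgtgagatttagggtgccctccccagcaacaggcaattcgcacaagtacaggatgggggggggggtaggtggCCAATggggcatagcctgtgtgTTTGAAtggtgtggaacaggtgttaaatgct

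In Kif11 and Espl1 a CCAAT letter match lies 45 and 44 bases before the start and a CHR match 19 and 27 bases before it, and in Ube2c CCAAT matches lie at 88 and 57 and the CHR match at 29. In Mki67 the CCAAT match at 141 is followed by CHR matches at 116 and 98. Mcm6 has E2F letters at 110 and 47 bases before the start, and Cdc6 at 138. Of these genes, Espl1, the protease that frees sister chromatids, had 169.7, 302 and 258 CPM in the chosen cells against 87.6, 115 and 100.1 in the rest (1.11 ± 0.12, adjusted p = 1.97e-05). Kif11, a motor of the bipolar spindle, had 303, 319 and 253 against 170.2, 100.8 and 77.1 (1.26 ± 0.15, 4.24e-05).

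The centromere and kinetochore list was mixed, with 17 of 34 genes higher and 9 lower. Hjurp, the chaperone that loads CENPA, had 256, 150.3 and 170.4 CPM in the chosen cells and 147, 48.3 and 30.1 in the rest (1.5001 ± 0.24, adjusted p = 3.29e-04). Incenp of the passenger complex (1.502 ± 0.13), Cenpi (2.16 ± 0.23) and Sgol1, the guardian of mitotic cohesion (1.65 ± 0.15), were higher, and Cenpp and Cenpc1 lower (-1.81 ± 0.14 and -0.95 ± 0.13). Cohesin genes were nearly all higher, 11 of 12 tested. The kleisin Rad21 had 331, 436 and 449 against 93.4, 128 and 110.9 (1.75 ± 0.11, 1.05e-06) and Smc1a was 2.28 ± 0.18 higher. Nipbl, the cohesin loader, was the 1 that was lower, at 61.5, 79.8 and 52.3 against 360.1, 358 and 224 (-2.40 ± 0.13, 4.89e-07).

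Genes of DNA methylation were higher in 5 of 6 tests and lower in none. Dnmt3a, a de novo methyltransferase, had 185, 224 and 266 CPM against 49.3, 73.5 and 49.7 (1.88 ± 0.16, adjusted p = 4.39e-06). Hells, a remodeller needed for methylation, had 526, 566 and 544 against 156, 248 and 147 (1.49 ± 0.15, 1.42e-05), and Dnmt1 was 1.30 ± 0.11 higher. The dioxygenase Tet3 was higher as well (1.75 ± 0.19). Against the later differentiating cells 0 of 6 tested genes of this list were higher and 1, Dnmt3b, was lower. The list summed to 1320, 1441.5 and 1505 CPM in the chosen cells and 1507, 1637 and 1670 in the later differentiating cells. Its high level is thus not particular to the chosen cells. The Polycomb list had 5 of 17 higher and 8 lower, against 32.3% and 34.9% of all genes. Its called differences ran from Cbx2 at 1.94 ± 0.15 to Pcgf6 at -3.82 ± 0.23. Cbx2 was called lower than in the later differentiating cells, at 112, 132 and 212 CPM against 156, 193 and 257. At equal depth of the score no Polycomb gene was called in that comparison.

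Targets of p53 included several that were higher, 11 of 22 tested, with 4 lower and a median of 0.69. Phlda3, an AKT repressor, had 9.84, 46.4 and 38.7 CPM against 1.12, 4.62 and 4.05 (3.09 ± 0.31, adjusted p = 1.49e-05). Btg2, an anti-proliferative gene, had 50.8, 53.8 and 48.9 against 6.62, 9.24 and 10.2 (2.45 ± 0.26, 1.9e-05), and the apoptosis gene Bax was 1.58 ± 0.16 higher. Mdm2, the ligase that degrades p53, was lower at 114, 143 and 168 against 265, 327 and 314 (-1.22 ± 0.12, 1.03e-05). The score gene Ccng1 belongs to the same pathway, so this list is not independent of the choice. Of the 8 CDK inhibitors 3 were higher, among them Cdkn2a (1.45 ± 0.20) and Cdkn1a (1.47 ± 0.33), and 3 lower. These shares are near those of all genes (32.3% and 34.9%). DESeq2 did not call Cdkn2b, the third that was higher, nor Cdkn1b, which was lower.

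Among the 12 genes with the largest differences were some that no list covered. Lhx2, a LIM-homeobox factor, had 48.4, 57.5 and 52.96 CPM against 4.53, 5.77 and 5.95 (3.16 ± 0.25, adjusted p = 3.04e-06). Lmo4, a LIM-only cofactor, had 70.5, 89.0 and 74.7 against 5.90, 13.1 and 6.4985 (3.19 ± 0.24, 2.26e-06). The X-linked Gm1141, of no stated function, had 60.7, 61.2 and 86.9 against 4.39, 11.2 and 5.33 (3.38 ± 0.31, 8.07e-06). For these 3 genes the lowest chosen sum was above the highest of the rest. Ppp1r1b, a phosphatase inhibitor (2.94 ± 0.30), Aif1l (3.50 ± 0.34), Tshz3 (3.22 ± 0.34) and the X-linked Morc4 (3.03 ± 0.35) were in the same set.

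**Figure D2:**
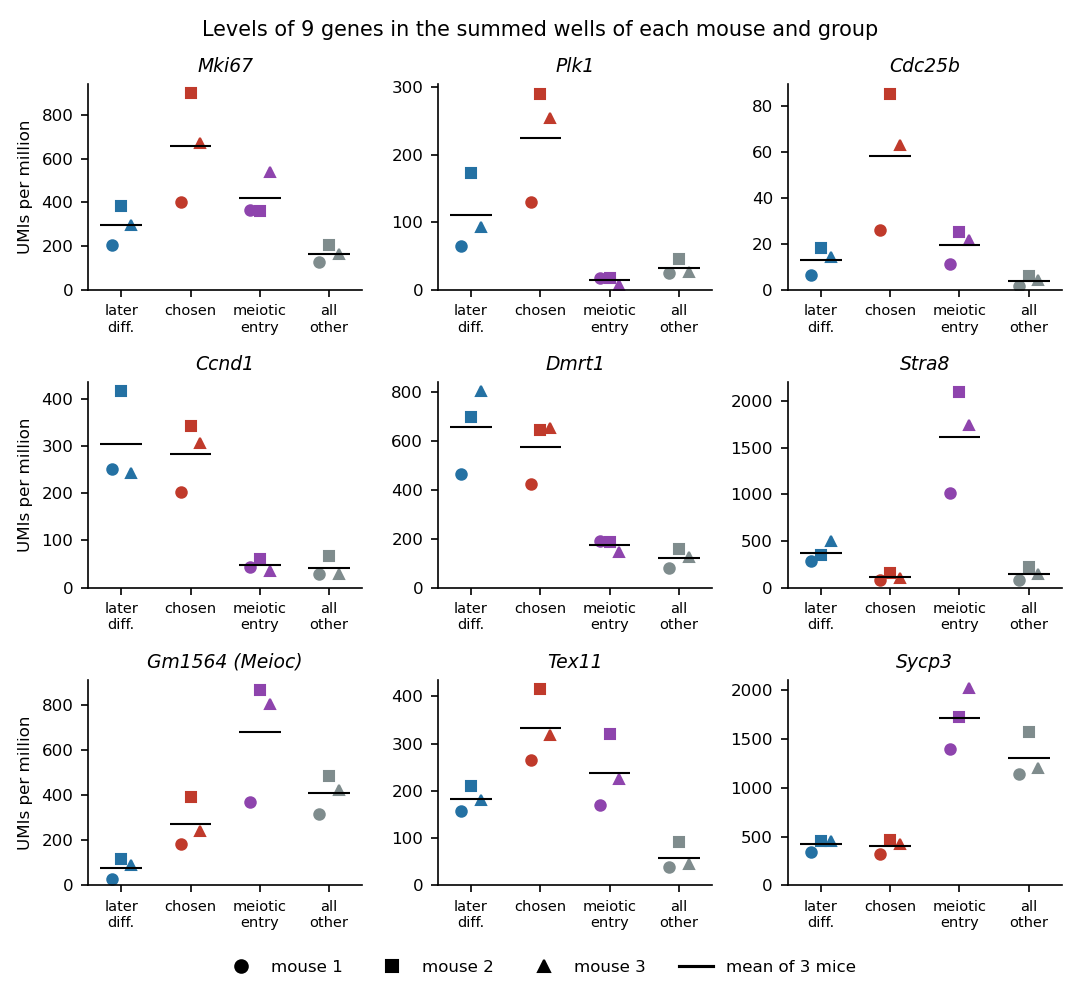
Levels of 9 genes (y axes, CPM, linear from 0) in summed wells of later differentiating, chosen, meiotic entry and all other kept wells; each point is 1 mouse (circle, square and triangle for mice 1, 2 and 3) and the bar is their mean. Plk1 and Cdc25b are highest in the chosen cells within each mouse. Stra8 is lower in the chosen cells (78.7 to 158) than in the 2 neighbouring groups, and no direction is given against all other wells. Gm1564 (Meioc) lies between the 2 neighbouring groups within each mouse.

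Against later differentiating spermatogonia far fewer genes differed: 735 of 9088 were higher (8.09%) and 797 lower (8.77%), with a median over all genes of -0.01. This comparison depended on the processing. DESeq2 called 78 higher and 126 lower, and edgeR called 384 and 470 without mouse 1 and 470 higher without mouse 3. When wells were scored after thinning each to 3000 UMIs, which changed 51 of the 148 chosen wells, 3 genes were higher and 1 lower: Mki67, Plk1 and Cenpe, and Stra8. The same 4 genes were called in the same direction in the comparison as reported. Genes of mitosis are partly bound to this contrast, because cells high for Ccna2 and Cenpa were taken out of the later differentiating group.

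Of the 50 mitosis genes 25 were higher and 0 lower in the chosen cells than in these neighbours, against 8.09% and 8.77% of all genes, and the list's median log2 difference was 0.39. DESeq2 called 10 of the 50, 3 were called with the score at equal depth and 0 without the mouse in the model. Mki67 had 400.2, 899.8 and 673 CPM in the chosen cells and 203, 381 and 298 in the later differentiating cells (log2 difference 1.13 ± 0.10 SE, adjusted p = 1.44e-07). Plk1 had 130.4, 289 and 254 against 64.6, 172 and 93.4 (1.09 ± 0.14, 1.63e-05). Cdc25b had 26.2, 85.3 and 63.1 against 6.46, 18.4 and 14.2 (2.12 ± 0.29, 1.77e-05). Mki67 and Cdc25b did not overlap between the groups. For Plk1 the chosen cells of mouse 1 lay below the later differentiating cells of mouse 2, but within each animal the chosen cells were higher. Plk1 was no longer called when chosen wells that also scored high for a neighbouring group were left out (0.47, adjusted p = 0.0503). Smc4 of condensin (1.04 ± 0.09), Cdk1 (0.84 ± 0.14) and Ccnb2 (0.62 ± 0.13) were higher too, of which DESeq2 called the first 2. None of these 3 was called at equal depth, where Smc4 was at 0.21. Cdk1 was not called without wells that scored high for a neighbouring group (0.36, adjusted p = 0.17), nor Ccnb2 without mouse 3 or with read counts. Ccnb1 differed by 0.41 ± 0.12 (adjusted p = 0.0174), was not called by DESeq2 (0.37), and was at -0.07 without wells that scored high for a neighbouring group.

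Fewer replication genes were called. Of 35 tested, 4 were higher, among them Prim1, Rrm2 and Pcna, and 2 lower, Mcm2 and Gmnn, with a median of 0.08. These counts are near the shares of all genes in this comparison (8.09% higher and 8.77% lower). DESeq2 called Prim1 and Rrm2 of the 3 genes named as higher. No replication gene was called with the score at equal depth, where Prim1 was at 0.06. Cdc6 stood at 98.4, 92.8 and 100.5 CPM in the chosen cells and at 114, 91.8 and 85.2 in the later differentiating cells. Mcm2 was at 234, 314 and 309.6 against 260.3, 383 and 439 (-0.33 ± 0.11, adjusted p = 0.0323), a call that DESeq2 did not make (0.52). Ccnd1 (cyclin D1) had no call, with 203, 341 and 307 against 252, 416 and 242 (-0.07 ± 0.12, adjusted p = 0.734). No gene of the cohesin list (12 tested) and none of the p53 list (15 tested) was called by edgeR or DESeq2.

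Stra8 was lower in the chosen cells than in the later differentiating cells. It had 78.7, 158 and 99.1 CPM in the chosen cells of mice 1, 2 and 3 and 284, 349 and 496 in the later differentiating cells. All 3 chosen sums were below all 3 of the other group, with a fitted log2 difference of -1.86 ± 0.15 SE (adjusted p = 5.7e-08, lower in 3 of 3 mice). The call was also made by DESeq2 (2.33e-09) and with the score at equal depth (-0.86, adjusted p = 3.61e-04), and of the alternatives run it was lost in 1, with the mouse left out of the model (-1.76, adjusted p = 0.101). In the cells of meiotic entry, which were chosen by Stra8 among others, the level was 1013.1, 2099.9 and 1742. Of the later differentiating wells, 4 of 32, 1 of 23 and 1 of 29 in mice 1, 2 and 3 were also in that group. Their part in the difference from the chosen cells was not tested. Against all other kept wells the difference was -0.53 ± 0.15 (85.0, 221 and 147 CPM, adjusted p = 0.0106) and reversed to 0.61 (adjusted p = 0.00164) with the score at equal depth, so no direction is given for that comparison.

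Other genes of the meiotic entry list were higher than in the later differentiating cells, 8 of 17, Stra8 being the 1 that was lower. Meioc, listed in the table under its older name Gm1564, encodes a partner of YTHDC2 that protects meiotic prophase, and had 185, 393 and 241 CPM in the chosen cells against 30.5, 117 and 89.9 (1.85 ± 0.17, adjusted p = 1.44e-07). The groups did not overlap, and DESeq2 called it (1.11e-08), but at equal depth of the score the difference was 0.16 (adjusted p = 0.764). Ythdc2 (0.93 ± 0.18), Prdm9, the methyltransferase that places recombination sites (1.11 ± 0.24), and Hormad1 of the chromosome axis (0.65 ± 0.17) were called by edgeR and not by DESeq2. At equal depth of the score Prdm9 was at -0.11. The X-linked Tex11, a meiotic recombination gene, had 265, 416 and 318 against 157, 211 and 181 (0.83 ± 0.11, 1.63e-05), with DESeq2 (0.00359) but not at equal depth. Sycp3 of the synaptonemal complex was not called, at 321, 462 and 422 against 342, 459 and 460.1 (adjusted p = 0.616).

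Some genes of undifferentiated spermatogonia were lower. Of 7 tested genes of undifferentiated cells 4 were lower and 0 higher: Lin28a, Egr4, Sall4 and Foxo1. Lin28a, an RNA-binding regulator of let-7, had 10.7, 16.7 and 16.3 CPM against 62.8, 94.1 and 72.1 (-2.36 ± 0.25, adjusted p = 1.02e-06). Dlk1, a NOTCH pathway ligand, had 8.20, 31.5 and 25.8 against 96.9, 80.3 and 135 (-2.45 ± 0.25, 7.78e-07). The de novo methyltransferase Dnmt3b had 88.6, 76.1 and 171 against 207, 255 and 249.6 (-1.04 ± 0.16, 7.55e-05). All 3 were separate between the groups, and DESeq2 called all 4 undifferentiated genes, Dlk1 and Dnmt3b. Pramef12 (-2.33 ± 0.21) and the X-linked factor Elf4 (-2.31 ± 0.27) were lower too. None of the genes named here was called with the score at equal depth. There Lin28a was at -0.52, Dlk1 at -0.73 and Dnmt3b at -0.22 (edgeR adjusted p = 0.533, 0.181 and 0.721). Without the mouse in the model the only calls were Lin28a, Pramef12, Mov10 and Pkm, all lower (adjusted p = 0.0467 each).

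Within the list of differentiating spermatogonia the chosen cells held less of some genes and more of others, 5 lower and 4 higher of 15. Besides Dlk1, Dnmt3b and Ccnd2, Uchl1, a ubiquitin hydrolase, was lower at 510.05, 818 and 982 against 834, 1405 and 1568 (-0.72 ± 0.09, adjusted p = 6e-06), and Sohlh2, a bHLH factor of early differentiation, by -1.003 ± 0.19. Prss50, a testis protease, was higher at 90.2, 288 and 148 against 21.2, 89.5 and 52.0 (1.71 ± 0.17, 4.03e-07). Rhox13 (0.85 ± 0.13), Elavl2 (0.64 ± 0.13) and Dmrtb1, which coordinates the passage from mitosis to meiosis (0.59 ± 0.11), were the other 3. DESeq2 called Uchl1, Prss50, Rhox13, Dlk1 and Dnmt3b of these 9. None of the 9 was called with the score at equal depth, where Uchl1 was at -0.19 and Prss50 at 0.34. Dmrt1 and Dazl were not called, at 422, 646 and 654 against 463, 700.2 and 804 for Dmrt1 (adjusted p = 0.158).

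The protamine genes Prm1 and Prm2, which package sperm DNA, were called higher than in the later differentiating cells. Prm2 had 13.9, 35.2 and 38.7 CPM against 0, 4.59 and 11.8, and Prm1 28.7, 37.1 and 87.6 against 1.85, 32.1 and 17.7. In all other kept wells Prm2 stood at 8.92, 139 and 49.3, and Prm1 at 11.02, 20.4 and 52.05. Prm1 was called higher in the chosen cells than in these wells. That call was lost at equal depth of the score, without plate 8 and without the mouse in the model. Against the later differentiating cells, the difference of Prm2 at equal depth of the score was -1.21 (adjusted p = 0.512). In the same comparison Prm1 was not called without mouse 3. The part of RNA from spermatids in these values was not tested.

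**Figure D3:**
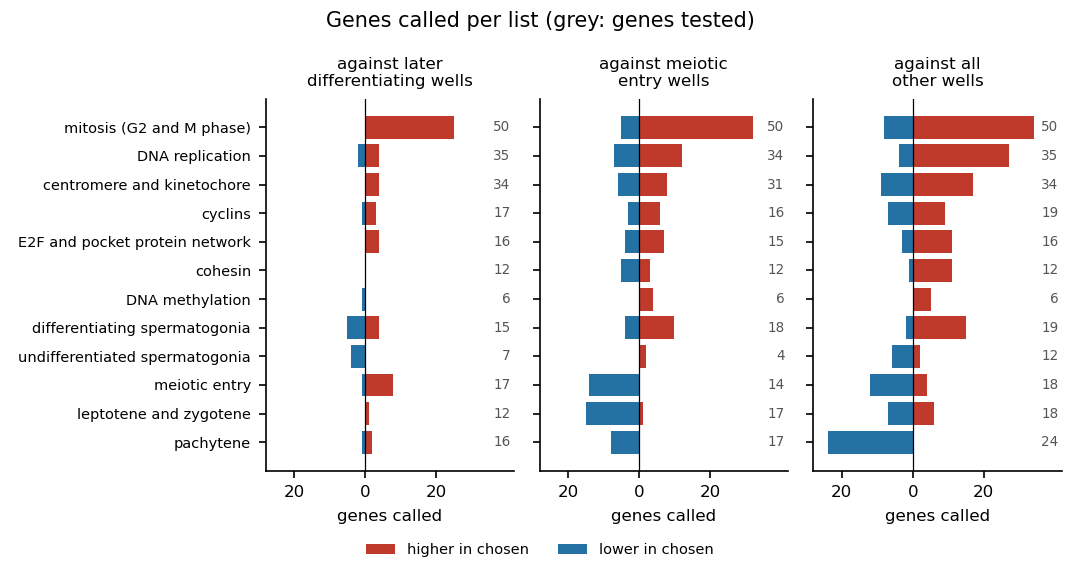
Genes called by edgeR (adjusted p under 0.05) per gene list in the chosen cells against later differentiating, meiotic entry and all other wells; bars to the right count genes higher in the chosen cells, bars to the left genes lower, and the grey number is the number tested. Of 50 mitosis genes, 25, 32 and 34 are higher and 0, 5 and 8 lower, from the left panel to the right. Over all genes 8.09%, 22.7% and 32.3% are higher and 8.77%, 22.5% and 34.9% lower. Meiotic entry genes are all lower in the middle panel (14 of 14). The cells compared in the middle panel were chosen by other genes of the meiotic entry list.

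Against cells at meiotic entry, 1834 of 8084 genes were higher in the chosen cells (22.7%) and 1821 lower (22.5%), with a median over all genes of 0.05. DESeq2 called 977 and 1181, and without mouse 3 edgeR called 1173 higher. The chosen wells held more RNA, at a median of 17413, 15176 and 23640 UMIs against 9815, 6845 and 10926, and 26.3 to 78.5 against 13.4 to 54.6 UMIs per spike-in UMI. Of the lists, mitosis had 32 of 50 higher and 5 lower, replication 12 of 34 higher and 7 lower, meiotic entry 0 of 14 higher and 14 lower, and leptotene and zygotene 1 of 17 higher and 15 lower. Their medians were 0.80, 0.07, -1.496 and -2.28. The cells at meiotic entry were chosen by other genes of the meiotic entry list, so the counts of that list are partly bound to the choice. The pachytene list had 0 of 17 higher and 8 lower, with 9 not called. The Sertoli list summed to 523, 367 and 304 CPM at meiotic entry against 143, 241 and 248 in the chosen cells, with Aard, Clu and Ctsl lower in the chosen cells of 3 tested; its part in these results was not tested.

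Several mitotic kinases and cyclins were low in the cells at meiotic entry. Plk1 had 130.4, 289 and 254 CPM in the chosen cells and 17.7, 18.0 and 7.83 at meiotic entry (log2 difference 3.85 ± 0.30 SE, adjusted p = 1.97e-07). Aurkb had 69.7, 108 and 103 against 20.9, 3.60 and 6.27 (2.93 ± 0.40, 4.16e-05). Ccnd1 had 203, 341 and 307 against 43.4, 61.1 and 36.0 (2.57 ± 0.21, 2.63e-07). The groups did not overlap for these genes. Ccnb1 was 2.56 ± 0.40 higher, but mouse 1 differed from the others at meiotic entry, with 149.6 CPM against 21.6 and 26.6 in mice 2 and 3. Cdk1 (1.59 ± 0.22), Ccnb2 (1.84 ± 0.24) and Cdc20, the activator of the anaphase complex (2.16 ± 0.25), were higher in 3 of 3 mice. The difference of Mki67, at 400.2, 899.8 and 673 against 363, 359.6 and 539, was 0.52 ± 0.18 (adjusted p = 0.0287), without a call by DESeq2 (0.0896), without mouse 2 (0.494) and in 6 further alternatives. Of the mitosis list, Top2a (-0.70 ± 0.14), the condensin gene Smc4 (-0.53 ± 0.14, not called without mouse 3), Kif23 (-0.75 ± 0.16), Ncapg and Bub1 were lower. Bub1, a kinase that also guards cohesion in meiosis, had 137, 211 and 206 against 473, 565 and 658 (-1.68 ± 0.15, 5.73e-07).

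Replication genes were called in both directions, 12 higher and 7 lower of 34. Cdt1, which licenses origins, had 134, 156 and 193 CPM in the chosen cells against 41.8, 21.6 and 15.7 (2.54 ± 0.29, adjusted p = 8.43e-06), and Mcm2 was 1.36 ± 0.18 higher. Prim1 of the primase was lower at 96.8, 173 and 131 against 148, 370.4 and 318 (-1.06 ± 0.18, 2.51e-04), and Gins3 by -1.44 ± 0.29. Pcna was at 733, 777 and 820.2 against 632, 716 and 901 and was not called (adjusted p = 0.907). Of the E2F list, E2f3 (2.11 ± 0.35) was higher, and Foxm1 (0.76 ± 0.23) and Mybl2 (1.05 ± 0.26) were called by edgeR only.

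Of the list of differentiating spermatogonia 10 of 18 were higher than at meiotic entry and 4 lower. Dmrtb1 had 253, 373 and 356 CPM against 24.1, 61.1 and 42.3 (2.99 ± 0.21, adjusted p = 7.46e-08), and Dmrt1 422, 646 and 654 against 191, 187 and 144 (1.66 ± 0.18, 4.04e-06). Pou3f1 (2.84 ± 0.46), Crabp1 (1.82 ± 0.25) and Esx1 (1.35 ± 0.19) were higher as well, and Kit by 0.86 ± 0.21, which was not called without mouse 3. Lmo4 (2.65 ± 0.33) and Lhx2 (1.88 ± 0.34) were higher here too, the second without a call at equal depth of the score. Dnmt3a was 1.65 ± 0.26 higher. For Dnmt3b, at 88.6, 76.1 and 171 against 64.3, 0 and 4.70, mouse 1 again held more at meiotic entry than the other mice. The 4 that were lower were Prss50, Taf7l, Rhox13 and Dazl. Prss50 had 90.2, 288 and 148 against 459.9, 1108 and 1062 (-2.44 ± 0.17, 9.37e-08).

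All 14 tested genes of the meiotic entry list and 15 of 17 of the leptotene and zygotene list were lower. The cells compared were chosen by Stra8, Prdm9 and Ugt8a, which are on the meiotic entry list and were not tested here. Lower levels of genes that go with them are partly bound to this choice. Sycp3 had 321, 462 and 422 CPM against 1399, 1722 and 2019.5 (-2.14 ± 0.13, adjusted p = 2.23e-08), and Sycp2 244, 369 and 348 against 1492, 1668 and 2134 (-2.52 ± 0.14, 1.03e-08). Dmc1, the recombinase of meiosis, had 84.5, 129.9 and 108 against 500.1, 672 and 868 (-2.71 ± 0.17, 2.23e-08). For all 3 genes the groups did not overlap. Spo11, which makes the breaks, had 9.84, 12.99 and 7.47 against 57.9, 39.6 and 105 (-2.90 ± 0.40, 3.8e-05). Meioc (Gm1564) was lower at 185, 393 and 241 against 369.9, 867 and 801 (-1.35 ± 0.17, 1.57e-05). The RNA-binding protein gene Rbpms2 showed one of the largest differences, at 4.92, 11.1 and 18.3 against 225, 439 and 475 (-5.05 ± 0.22, 1.5e-09). The 1 gene of the leptotene and zygotene list that was higher was Tex11 (0.46 ± 0.15, adjusted p = 0.0219), a call that DESeq2 did not make (0.14). The cohesin list had 3 higher and 5 lower of 12, against 22.7% and 22.5% of all genes. Rad21 was higher (1.66 ± 0.21), and Smc3 (-1.02 ± 0.14), Esco2 (-1.20 ± 0.15) and Nipbl (-3.11 ± 0.18) lower.

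Across all 4 groups the order of the levels differed by gene. For Dmrt1 and Ccnd1 the later differentiating and chosen cells were high and not separated, and meiotic entry cells were low. For Plk1 and Cdc25b the chosen cells had the highest level in each animal. For Meioc the level was lowest in the later differentiating cells and higher in the chosen and then the meiotic entry cells within every animal. For Stra8 the chosen cells were below the later differentiating and the meiotic entry cells in each animal.

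**Figure D4:**
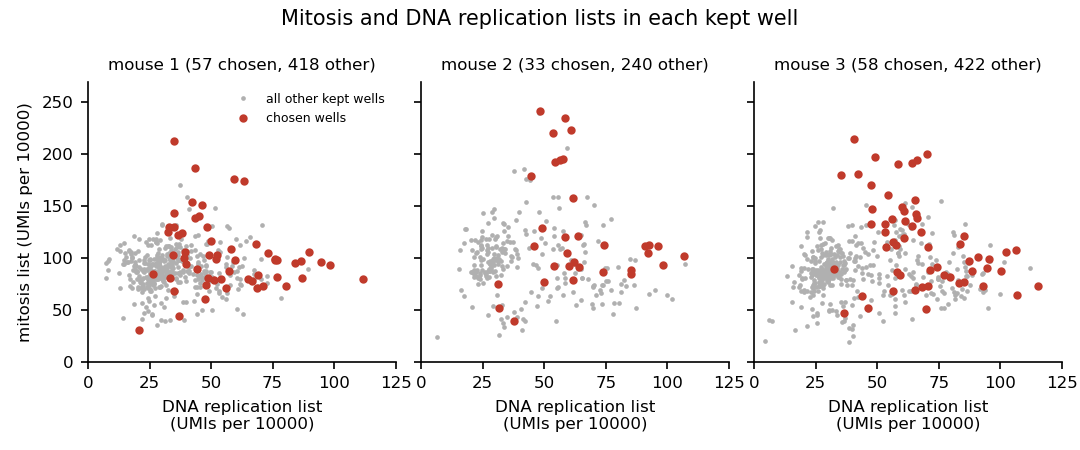
Summed UMIs per 10000 of the DNA replication list (x axis) and the mitosis list (y axis) in each kept well, chosen wells in red and all others in grey, 1 panel per mouse, linear axes from 0. The chosen wells with the highest mitosis value in each mouse (213, 242 and 215) and those with the highest replication value (111.9, 106.9 and 115) lie at different ends of the cloud.

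Single wells of the chosen group varied widely in the mitosis and replication lists. The mitosis list ranged from 30.5 to 213 UMIs per 10000 among the 57 wells of mouse 1, with a median of 97.6. Mouse 2 had a lowest well of 39.2, a highest of 242 and a median of 111.4. Mouse 3 had 47.2, 215 and 110.6. For the replication list the lowest wells were at 20.6, 31.3 and 32.5 and the highest at 111.9, 106.9 and 115. The chosen wells thus spanned several fold on both lists. Across chosen wells of an animal the 2 lists had a Spearman correlation of -0.24, -0.07 and -0.35 over 57, 33 and 58 wells, given as a description over wells that share libraries and differ in depth. The mitosis list itself had a Spearman correlation of -0.02, 0.42 and 0.24 with the UMIs of a well. For mitosis, 36 of 57, 21 of 33 and 41 of 58 chosen wells lay above the median of the other wells, and for replication 55 of 57, 31 of 33 and 57 of 58 did. For the meiotic entry list only 1 of 57, 0 of 33 and 0 of 58 did.

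**Figure D5:**
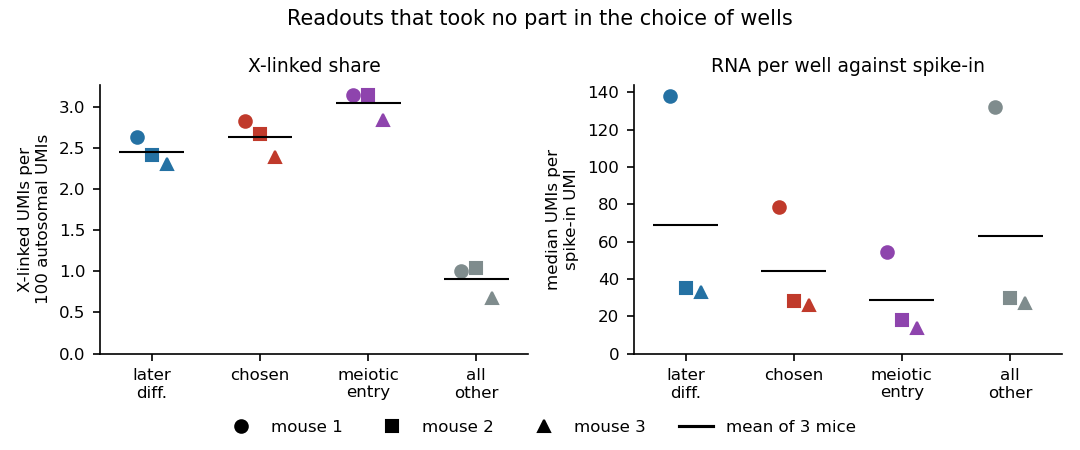
Left, X-linked UMIs per 100 autosomal UMIs, and right, the median over wells of UMIs per spike-in UMI (both y axes linear from 0), in the 4 groups; points are mice and bars the mean of 3 mice. The chosen cells sit at 2.39 to 2.82 for the X, above all other wells (0.674 to 1.04) and below meiotic entry cells (2.84 to 3.15) in each mouse, and mouse 1 is highest in the spike-in measure in every group.

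The X chromosome took no part in the score, since the 6 genes are autosomal, although Esx1, used for the later differentiating group, is X-linked. Chosen cells had 2.82, 2.67 and 2.39 X-linked UMIs per 100 autosomal UMIs in mice 1, 2 and 3, and all other kept wells 1.00, 1.04 and 0.674. The groups did not overlap, and the mean log2 ratio within animals was 1.56 ± 0.24 (SD, n = 3), higher in 3 of 3 mice, with an exact two-sided sign-flip permutation p of 0.25, the smallest that 3 animals allow. Later differentiating cells were at 2.63, 2.41 and 2.30, below the chosen cells in each animal by 0.10 ± 0.05 on the log2 scale. Meiotic entry cells were at 3.15, 3.15 and 2.84, above the chosen cells in each animal (log2 ratio of chosen to entry -0.21 ± 0.05). Both differences had the same sign in 3 of 3 mice, and an exact permutation p of 0.25.

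The RNA content, read as the median over wells of UMIs per spike-in (ERCC) UMI, was 78.5, 28.4 and 26.3 in the chosen cells and 132, 29.6 and 27.3 in all other wells. The mean log2 ratio was -0.29 ± 0.40 (SD, n = 3), which is within the spread of the animals, with an exact permutation p of 0.25. Mouse 1 carried most of it, at -0.75 against -0.06 in each of the others. The sign changed when wells with 1000 UMIs or more were kept (0.14) and with the score at equal depth (0.04). Mitochondrial UMIs were 6.51, 14.3 and 13.4 per 100 in the chosen wells and 4.57, 12.05 and 10.2 in the rest, higher in 3 of 3 mice, and 10.01, 17.6 and 17.2 at meiotic entry; their part in the gene differences was not tested.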

How the data were processed

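UMI counts per gene and well, deposited by the authors as 1 table for the series, were the values used. Reads were mapped with BWA 0.7.10 to mm10, per the submitters' processing notes; the counting tool is not given in the sources used here. The deposited read counts of the same wells served as an alternative, and 1 further deposited table was not used. The 8 libraries of mouse 1 cannot be separated by column name and were pooled. Counts were summed per mouse and group and fitted with edgeR 4.0.16 in R 4.3.3 (~ mouse + group, TMM factors, filterByExpr), tested on simulated data, with DESeq2 1.42.0 as an alternative. Both groups of a comparison come from the same animals, so the mouse is the block; the deviations of same-mouse sums correlated at 0.83, 0.47 and 0.69 (against all other wells), 0.84, 0.44 and 0.64 (later differentiating) and 0.74, 0.40 and 0.53 (meiotic entry). Sign-flip tests over mice used Python 3.11.15. Differences are log2 with their SE. Of 424 list genes, 411 were found by symbol, 9 by an older symbol in RefSeq and 4 were not found. The meiotic entry score used 3 of its 4 genes, since Gm4969 was not found in the table. "Equal depth" means that the score was computed after wells were thinned to 3000 UMIs. Sorting put 1 cell in a well and doublets were not called. Named genes were, per comparison, the 12 largest fitted differences in each direction among called genes with 1 direction in 3 mice and at least 20 UMIs per 1000000 UMIs in the higher group, and, per list, the 4 called genes with the largest differences and the 2 uncalled ones with the highest level; only some are described, and a few items are not reported here. Further list members, and Cenpe, Mov10 and Pkm, were named after their values were seen. The score genes, the members and the lists were chosen with earlier results of these data known.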

Additional observations from a re-analysis of the deposited data

Results flagged for a closer look

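Wells with fewer than 3000 UMIs were left out of the scoring but held UMIs of the 6 score genes: 46 in 293 wells of mouse 1, 41 in 111 wells of mouse 2 and 52 in 288 wells of mouse 3, above the limit of 3 counts that a count of 0 allows. As a share of UMIs this was 213, 316 and 209 UMIs per 1000000 UMIs, against 198, 366 and 255 in the kept wells of the same animals. The score genes were seen in 35, 28 and 36 of these wells.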

How the results depend on the processing

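Against all other wells the counts of genes higher and lower stayed within 1.5 times of 3806 and 4106 in every setting run. Against later differentiating cells the counts of genes higher and lower (735 and 797) were 78 and 126 with DESeq2, 373 and 392 with the top 20% of wells, 187 and 221 with read counts, and 3 and 1 with the score at equal depth (363 and 410 at an unadjusted p under 0.05). Leaving out 1 mouse gave 384 to 650 higher and 470 to 717 lower. Without the replicate block the counts were 0 and 4 (718 and 790 at an unadjusted p under 0.05; DESeq2, with the block, 78 and 126), against meiotic entry cells 1006 and 1165, and against all other wells 2799 and 3271. Against meiotic entry cells (1834 and 1821) the counts were 977 and 1181 with DESeq2, 933 and 1208 at equal depth and 1129 higher with read counts, and leaving out 1 mouse gave 1173 to 1687 higher. Spike-in based RNA content changed sign with a minimum of 1000 UMIs (0.14) and at equal depth (0.037). The X-linked share kept its direction, at 1.43 to 1.76 over all settings. Signs that changed for single genes were, against all other wells, Ccnd2 (0.24), Stra8 (0.27) and Cdc20 (-0.40) with the top 20%, and Stra8 (0.61) and Pcna (-0.030) at equal depth. Against later differentiating cells they were Prdm9 (-0.11) and Prm2 (-1.21) at equal depth and Ccnb1 (-0.071) without wells that scored high for a neighbouring group. The cause was not tested. Of 54 named genes called against later differentiating cells, 31 were also called with DESeq2 and 4 at equal depth, and of 76 against meiotic entry cells, 70 and 64. With 3 mice the exact test over animals cannot pass the threshold, and rare genes are limited by the UMIs of 84 wells in the smallest group.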
